A study of Mus musculus with 2 samples.

Results

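Cartilage and bone lineage genes were examined in a pair of immortalised mouse embryonic fibroblast (MEF) lines, 1 null for Bmi1 and 1 wild-type for it. The members were 10 listed genes, namely the transcription factors Runx1, Runx2 and Sp7, the bone genes Alpl and Spp1, the cartilage matrix genes Acan, Comp and Hapln1, the mineralisation inhibitor Mgp and the decoy receptor gene Tnfrsf11b. Every probe set that the platform annotation assigned to exactly 1 gene on this list was taken. These were 17 of 45101 probe sets and covered 8 of the 10 genes, out of 18194 genes with such a probe set. No probe set with the symbol Runx2 or Spp1 stood in the annotation used here, so the expression of both genes was not analysed here. Collagens were not part of the list.

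The Bmi1 null line (knockout in the labels) and the Bmi1 wild-type line were derived from littermates, and both carried a TBX2 construct that had immortalised them. The labels give both as C57BL/6, male and untreated. RNA of each line was hybridised to 1 Affymetrix mouse expression array, so each group is 1 line, 1 culture and 1 array, and these cannot be told apart from genotype. No test across cultures was therefore possible and no p-value is given.

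Bmi1 is a subunit of Polycomb repressive complex 1, which ubiquitylates histone H2A and holds many developmental genes silent. Cartilage and bone cells descend from mesenchymal progenitors related to fibroblasts. Sox9 directs the cartilage path, whose cells secrete aggrecan and link protein, while Runx2 and Sp7 direct the bone path, whose cells lay down and mineralise matrix. Matrix Gla protein (Mgp) keeps soft tissues and cartilage from calcifying. Osteoprotegerin (Tnfrsf11b) is secreted by osteoblasts and fibroblasts and captures RANKL, the ligand that drives osteoclast formation.

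Before the members were described, the arrays were checked against their labels. Bmi1 read 2146 on the null array and 9933 on the wild-type array at 1 probe set, 4.63-fold lower in null cells, but 831 and 931 at the other. Where these probes lie relative to the deletion is not known here. The Y-linked genes Eif2s3y, Uty and Kdm5d read 23.3, 26.5 and 15.3 on the null array, against 1683, 1187 and 712 on the wild-type array, although male is the label of both. This difference in Y-linked signal between the lines likewise cannot be told apart from genotype. The RNA Xist, which is transcribed from the inactive X chromosome, read 124 in null cells and 153 in wild-type cells, so neither array had a high Xist signal. The arrays had the same mean signal (500 after trimming 2% at each end). Signals below 100, which is 0.2 times that mean, were treated as a floor, and a probe set that exceeded it on neither array was called not measured. All log2 ratios are null over wild-type, and where 1 array was below the floor the fold is a lower bound. As the only error these arrays provide, the SD of the log2 ratio between probe sets of 1 gene was 0.33 among 1775 pairs with signals of 100 to 500. It was 0.28 among 2200 pairs with signals of 500 to 2000, and 0.20 among 1712 brighter pairs. That SD covers probe sets and neither cultures nor arrays.

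Fibroblast identity was examined with a list of 12 markers. In these bulk samples fewer cells of a type and less RNA per cell cannot be told apart. All 12 were measured, and 11 were above the floor on each array. Vimentin, fibronectin (Fn1) and periostin (Postn) read 19233, 12777 and 15721 in null cells and 19519, 14137 and 16822 in wild-type cells at their brightest probe sets. A dimmer Fn1 probe set read 369 in null cells and 741 in wild-type cells, 2.01-fold lower. Of all 11766 measured genes on the arrays, 5.16% were at least 2-fold lower in null cells and 5.73% at least 2-fold higher. Of the 12 markers, 3 were at least 2-fold lower in null cells and 0 higher (median log2 ratio −0.12). They were the mesenchymal factor Twist2 (475 in null cells, 9563 in wild-type cells, 20.1-fold lower), the PDGF receptor Pdgfra (532 and 4952, 9.31-fold lower) and the surface antigen Thy1 (50.7 and 375, at least 3.75-fold lower). Thy1 is named after its value was seen, and it exceeded the floor in wild-type cells alone, so it could count as measured only with a lower value in null cells.

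Promoter sequence was available for 6 of the 10 members, in 9 windows from 250 bases before to 50 bases after an annotated start (RefSeq, GRCm38.p6). The windows of the RUNX genes are shown because Runx1 is the one measured transcription factor on this list and RUNX proteins bind a short recognition motif. It was searched for as TGTGGT and TGCGGT, with ACCACA and ACCGCA as the same motifs on the other strand, matches being free to overlap. Capitals mark the matches.
Runx1, distal start, chr16:92826025-92826324, minus strand: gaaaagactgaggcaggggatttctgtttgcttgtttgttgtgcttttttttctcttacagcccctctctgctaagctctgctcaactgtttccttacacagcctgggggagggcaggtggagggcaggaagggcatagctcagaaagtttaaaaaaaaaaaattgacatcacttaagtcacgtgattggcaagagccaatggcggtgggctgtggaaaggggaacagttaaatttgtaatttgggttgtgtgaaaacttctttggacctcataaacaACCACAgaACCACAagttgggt
Runx1, proximal start, chr16:92697280-92697579, minus strand: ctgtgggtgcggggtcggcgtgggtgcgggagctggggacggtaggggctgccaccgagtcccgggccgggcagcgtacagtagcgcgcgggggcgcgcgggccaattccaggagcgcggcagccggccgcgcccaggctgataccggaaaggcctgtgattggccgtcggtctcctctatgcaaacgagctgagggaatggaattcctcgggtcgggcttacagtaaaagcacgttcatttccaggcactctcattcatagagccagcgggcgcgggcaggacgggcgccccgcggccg
Runx2, chr17:44814578-44814877, minus strand: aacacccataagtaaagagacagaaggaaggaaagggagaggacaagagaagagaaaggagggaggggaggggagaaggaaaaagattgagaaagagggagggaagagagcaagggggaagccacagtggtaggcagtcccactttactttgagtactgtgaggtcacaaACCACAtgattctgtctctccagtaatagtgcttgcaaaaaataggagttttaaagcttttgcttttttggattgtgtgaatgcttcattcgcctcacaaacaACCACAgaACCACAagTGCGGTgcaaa
The distal Runx1 window held 2 matches, which began at bases 29 and 37 of the transcript. The Runx2 window held 4, which began 80 bases before the start and at bases 24, 32 and 40 after it. Both windows thus carried closely spaced matches within the first transcribed bases, and each held 2 CpG dinucleotides. The proximal Runx1 window held 35 CpG and 0 matches. Hapln1 and the upstream Spp1 window held 1 match each, whereas Alpl, Acan and the other Spp1 window held 0. Of all 32851 windows of 300 bases, 22.4% held at least 1 match, so a match is common and is given as a description of sequence alone. The array does not show which Runx1 start was used.

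Among the 17 member probe sets, 10 were above the floor in null cells and 5 in wild-type cells. The share of all probe sets above the floor on each array was not computed, so these 2 counts are a description only. The median signal of all probe sets was 90.1 on the null array and 84.8 on the wild-type array, both just below the floor. In all, 11 were measured. In null cells 3 of these 11 showed at least 2-fold higher signal, beside 5.06% of the 20620 measured probe sets on the arrays. None of the 11 was at least 2-fold lower, beside 5.1% of all. The 3 probe sets belonged to 2 genes, Tnfrsf11b and Mgp, and so are not independent of each other. All 3 exceeded the floor in null cells alone, so they could count as measured only with a higher value in null cells. The list itself was chosen with earlier results of these data known. These counts, by probe set or by gene, are therefore a description and do not show an excess. Counted by gene, with the brightest probe set by mean log2 signal standing for each, 6 members were measured. In null cells 2 of them showed at least 2-fold higher signal (5.73% of 11766 measured genes) and 0 at least 2-fold lower signal (5.16%). The median log2 ratio of the 6 was 0.38, against 0.01 for all measured genes. It moved to 1.07 over 7 genes with the floor at 50, to 1.45 over 3 genes with the floor at 200 and to 0.75 over 8 genes without a floor. This median rests on 4 genes whose wild-type signal was below the floor and whose ratio lay above 0, on Runx1 below 0, and on Acan at 0.03 with a wild-type signal likewise below the floor.

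**Figure D1:**
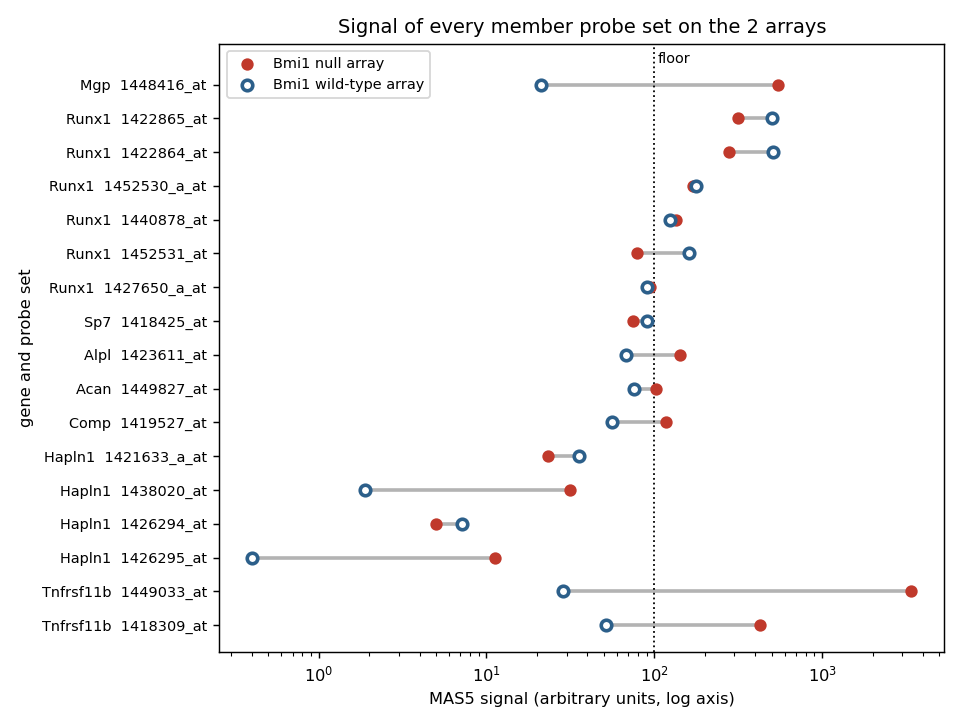
MAS5 signal (x axis, log scale, arbitrary units) of each of the 17 member probe sets (y axis) on the Bmi1 null array (filled red) and the Bmi1 wild-type array (open blue), 1 array per group, with the floor of 100 as a dotted line. Tnfrsf11b and Mgp lie far above the floor in null cells and below it in wild-type cells, whereas 4 of 6 Runx1 probe sets are brighter in wild-type cells and all 4 Hapln1 probe sets are below the floor on both arrays.

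Tnfrsf11b had the highest ratio of any member. At probe set 1449033_at its signal was 3408 in null cells and 28.6 in wild-type cells, at least 34.1-fold higher in null cells (log2 ratio of at least 5.09). This bound ranked 16th from the top among 20620 measured probe sets. At the second probe set, 1418309_at, the signal was 428 in null cells and 51.7 in wild-type cells, at least 4.28-fold higher (log2 ratio of at least 2.10, rank 289). Both probe sets therefore passed 2-fold in the same direction. Their bounds differed by 2.99 on the log2 scale, and since wild-type signal was below the floor at both, the bounds do not show whether the true ratios differed. The mean of the 2 was 3.59.

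The partners of osteoprotegerin were read alongside it. Tnfsf11, which encodes RANKL, was not measured, with 81.9 in null cells and 5.28 in wild-type cells at its brighter probe set. Tnfrsf11a, which encodes its receptor RANK, was above the floor on both arrays and differed little. It read 141 in null cells and 165 in wild-type cells at 1 probe set and 140 and 149 at the other, with log2 ratios of −0.23 and −0.09. Csf1, the other cytokine needed for osteoclast formation, read 2980 in null cells and 2760 in wild-type cells at its brightest probe set (log2 ratio 0.11), and its dimmer probe sets had log2 ratios from −0.93 to −0.14. Tnfsf10, which encodes TRAIL, a further ligand of osteoprotegerin, read 117 and 104 (log2 ratio 0.18).

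Mgp was the other member past 2-fold. Its single probe set read 547 in null cells and 21.0 in wild-type cells, at least 5.47-fold higher in null cells (log2 ratio of at least 2.45, rank 196 of 20620). The Mgp protein is active only once its glutamate residues have been carboxylated in a vitamin K cycle. Ggcx, the carboxylase, read 477 in null cells and 358 in wild-type cells (log2 ratio 0.41), and a dimmer Ggcx probe set had 138 and 70.5. Vkorc1, which recycles vitamin K, read 3544 and 2831 (log2 ratio 0.32). Transcripts of both enzymes were thus above the floor in both lines at their brightest probe sets and differed less than 2-fold.

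**Figure D2:**
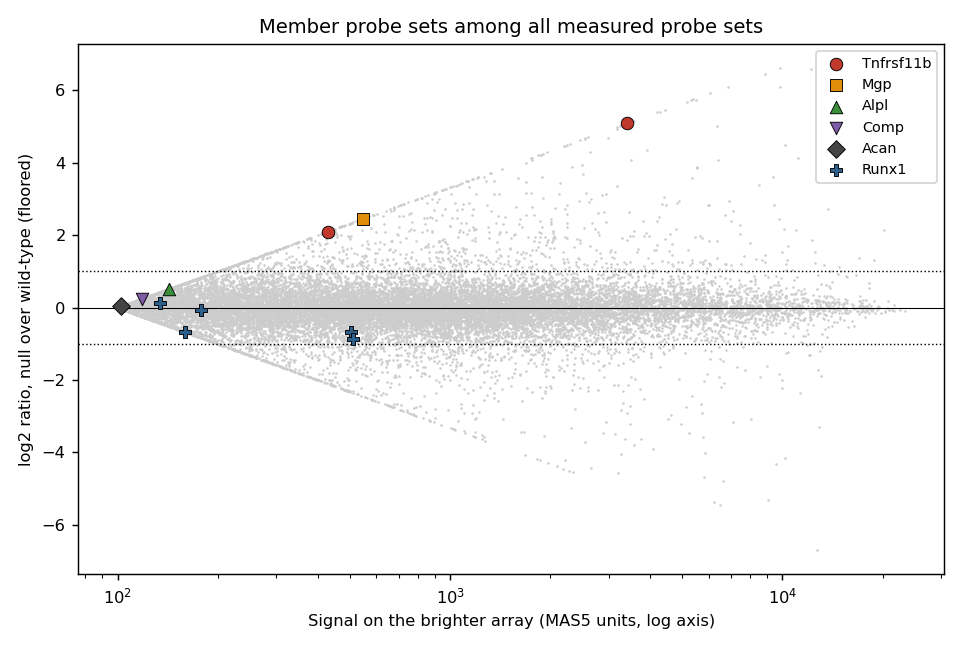
Log2 ratio, null over wild-type, with signals below 100 set to 100 (y axis) against the signal on the brighter array (x axis, log scale, MAS5 units) for all 20620 measured probe sets (grey) and the 11 measured member probe sets (coloured). Dotted lines mark 2-fold. Tnfrsf11b and Mgp lie on the upper edge, where the wild-type signal is at the floor, and all Runx1 probe sets lie within 2-fold.

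Runx1, a transcription factor best known for blood formation that is also expressed in skeletal progenitors, was the only member above the floor in wild-type cells. It had 6 probe sets, of which 5 were measured. At 1422864_at it read 277 in null cells and 510 in wild-type cells, 1.84-fold lower in null cells (log2 ratio −0.88). At 1422865_at it read 316 in null cells and 503 in wild-type cells, 1.59-fold lower (log2 ratio −0.67). Both values exceeded the SD between probe sets at that signal, but neither reached 2-fold. A dimmer probe set, 1452531_at, read 78.8 in null cells and 160 in wild-type cells, at least 1.60-fold lower. The others did not show this. At 1452530_a_at the signals were 169 and 178 (log2 ratio −0.07), and at 1440878_at they were 134 and 124 (log2 ratio 0.12). The last, 1427650_a_at, was below the floor on both arrays at 94.4 and 90.6. Thus the probe sets of Runx1 spanned up to 1.00 on the log2 scale, 3 of them lying below −0.6 and 2 close to 0, and their mean was −0.44. Cbfb, the partner that RUNX proteins need to bind DNA stably, read 2618 in null cells and 2578 in wild-type cells (log2 ratio 0.02). Runx3 was not measured, with at most 48.3 in null cells and 47.9 in wild-type cells.

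Sp7 (osterix), the bone-determining factor that acts downstream of Runx2, was not measured. Its single probe set read 74.5 in null cells and 90.5 in wild-type cells. Alpl, the tissue-nonspecific alkaline phosphatase that removes the mineralisation inhibitor pyrophosphate, read 143 in null cells and 68.0 in wild-type cells. The bound was at least 1.43-fold higher in null cells (log2 ratio of at least 0.52). Without a floor the Alpl signals themselves differed 2.11-fold, but the wild-type value lies below the floor.

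The cartilage matrix genes stayed below the floor in wild-type cells and at most slightly exceeded it in null cells. Comp, a pentameric glycoprotein of cartilage and tendon, read 118 in null cells and 56.3 in wild-type cells, at least 1.18-fold higher (log2 ratio of at least 0.24). Acan, which encodes the large cartilage proteoglycan aggrecan, read 102 in null cells and 75.8 in wild-type cells, with a bound of 1.02-fold. Both signals in null cells were therefore barely above the floor. Hapln1, the link protein that fastens aggrecan to hyaluronan, was not measured at any of 4 probe sets. Its signals ranged up to 31.3 in null cells and up to 35.5 in wild-type cells. At 2 Hapln1 probe sets null cells were brighter (31.3 against 1.90 in wild-type cells, and 11.2 against 0.403), and at the other 2 they were dimmer (23.4 against 35.5, and 5.03 against 7.15), so the probe sets had no common direction.

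Other genes of the cartilage path were read from a list of 20, of which 19 had a probe set and 10 were measured. Signal in null cells was at least 2-fold higher for 2 of these 10 and at least 2-fold lower for 1, with a median log2 ratio of 0.26. Among all measured genes the shares were 5.73% higher and 5.16% lower. Papss2, the synthase of the sulfate donor that cartilage proteoglycans require, read 1161 in null cells and 316 in wild-type cells, 3.68-fold higher (log2 ratio 1.88). Its other measured probe sets were 4.44-fold and at least 2.89-fold higher. Trps1, a GATA-type repressor of the growth plate, read 841 in null cells and 263 in wild-type cells, 3.19-fold higher, and 3.78-fold and 4.96-fold at its other measured probe sets. Chst11, a chondroitin sulfotransferase, read 265 in null cells and 653 in wild-type cells, 2.46-fold lower. Sox9 itself had 476 in null cells and 731 in wild-type cells (log2 ratio −0.62), and −0.93 at a second probe set. Among genes largely restricted to cartilage or joints, Matn1, Chad, Cnmd, Epyc and Prg4 were below the floor on both arrays. Matn3 and Ucma were above it in null cells alone. Matn3 read 155 in null cells and 15.2 in wild-type cells, and 162 and 2.24 at its other probe set. Ucma read 114 in null cells and 29.3 in wild-type cells, while its other probe set was not measured (1.95 and 1.93). The fold, null over wild-type, had a lower bound of 1.55 for Matn3 at the first probe set and of 1.14 for Ucma.

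Bone genes outside the members were read from a list of 25, of which 20 had a probe set and 9 were measured. Signal in null cells was at least 2-fold higher for 3 of these 9 and at least 2-fold lower for 1 (median log2 ratio 0.17). The 3 higher genes exceeded the floor in null cells alone, so they could count as measured only with a higher value there. Their count is a description and does not show an excess. Among all measured genes the shares were 5.73% higher and 5.16% lower, for this list and the next. Ank, a membrane protein that raises extracellular pyrophosphate and so restrains mineralisation, read 788 in null cells and 2168 in wild-type cells, 2.75-fold lower. The matrix protein Sparc, abundant in bone and in fibroblasts alike, read 20720 and 18362 (log2 ratio 0.17). The late osteoblast and osteocyte genes Ibsp, Dmp1, Mepe, Phex, Sost and Ifitm5 were below the floor on both arrays. A further list of 12 genes of mineral handling and RANK signalling had 7 measured members, with 0 at least 2-fold higher, 1 at least 2-fold lower and a median of 0.11. The lower gene was the phosphate transporter Slc20a1, which read 1420 in null cells and 3547 in wild-type cells (2.50-fold lower). Slc20a2, the related transporter, read 956 and 1432 (1.50-fold lower).

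Markers of cells that could express members of the list were read because the bulk signal does not resolve cells. Of 10 osteoclast markers, 5 were measured, 3 at least 2-fold lower in null cells and 0 higher (median −2.13). Among all measured genes the shares were 5.16% lower and 5.73% higher. Ctsk, a collagen-degrading protease of osteoclasts that fibroblasts also make, read 487 in null cells and 5763 in wild-type cells, 11.8-fold lower. The gelatinase Mmp9 read 95.6 in null cells and 895 in wild-type cells, at least 8.95-fold lower, and the integrin subunit Itgb3, named after its value was seen, 48.9 and 437, at least 4.37-fold lower. Mmp9 and Itgb3 exceeded the floor in wild-type cells alone, so they could count as measured only with a lower value in null cells. The median of −2.13 is the bound of Itgb3. This count and median are therefore a description and do not show an excess of lower genes. The osteoclast markers Acp5, Calcr, Dcstamp, Ocstamp and Atp6v0d2 were below the floor on both arrays. Nfatc1 and Oscar, also on this list, were above it on both arrays at their brightest probe sets. Nfatc1 read 296 in null cells and 485 in wild-type cells (log2 ratio −0.71), and its other measured probe sets had log2 ratios from −0.51 to 0.14. Oscar read 154 in null cells and 122 in wild-type cells (log2 ratio 0.34), but 56.5 and 121 at its other probe set (log2 ratio −0.27, null cells below the floor). The summed signal of the 10 was 1230 in null cells (5.83 to 487 per gene) and 7841 in wild-type cells (8.36 to 5763).

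Of 10 macrophage and blood markers, 4 were measured (median −0.37). Past 2-fold, 0 were higher in null cells and 1 lower, beside 5.73% and 5.16% of all measured genes. The lower gene was Cd14, which read 453 in null cells and 1012 in wild-type cells (2.24-fold lower). Csf1r read 213 in null cells and 244 in wild-type cells (log2 ratio −0.20), but 282 and 174 at another probe set (log2 ratio 0.70). Adgre1 read 118 and 171 (log2 ratio −0.54). Spi1, with 104 in null cells and 76.0 in wild-type cells, exceeded the floor in null cells alone. Ptprc, Cd68, Itgam, Lyz2, Tyrobp and Fcer1g were below the floor on both arrays. The summed signal was 1218 in null cells (6.53 to 453 per gene) and 1781 in wild-type cells (12.4 to 1012). Of 9 endothelial markers, 6 were measured, with 0 at least 2-fold higher, 1 at least 2-fold lower and a median of 0.03. The lower gene was Cdh5 at 29.2 in null cells and 208 in wild-type cells (at least 2.08-fold lower), named after its value was seen. At that probe set Cdh5 exceeded the floor in wild-type cells alone, so it could count as measured only with a lower value in null cells. A further Cdh5 probe set was not measured (79.3 and 58.2). Eng read 254 in null cells and 141 in wild-type cells (log2 ratio 0.86), and Kdr 206 and 150 (log2 ratio 0.46). Emcn (103 and 26.0) and Esam (101 and 94.4) barely exceeded the floor, in null cells alone. Cd34 read 8252 in null cells and 10839 in wild-type cells (log2 ratio −0.39). Pecam1, Tek and Tie1 were below the floor on both arrays. The summed signal was 9010 in null cells (1.42 to 8252 per gene) and 11514 in wild-type cells (1.50 to 10839), most of it Cd34. In an alternative chosen after seeing the data, the brightest gene of each list was left out of the sum. The osteoclast sum without Ctsk was 743 in null cells and 2078 in wild-type cells, the macrophage and blood sum without Cd14 was 765 and 769, and the endothelial sum without Cd34 was 759 and 676. The lower sums in null cells thus rested on 1 gene in the macrophage and blood list and in the endothelial list, and the part of such cells in the member values was not tested.

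**Figure D3:**
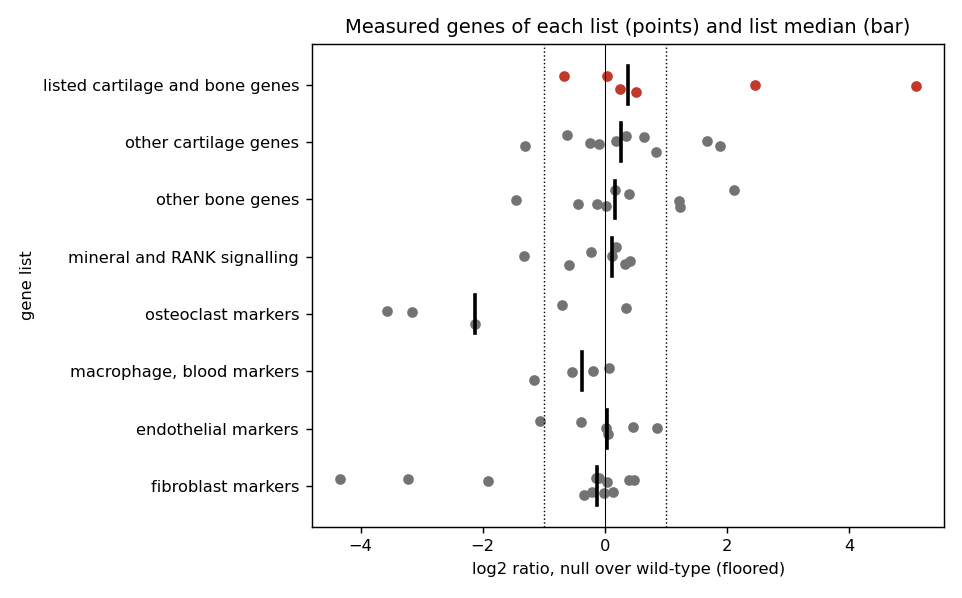
Log2 ratio, null over wild-type, with signals below 100 set to 100 (x axis) for each measured gene (points) of the 6 measured members (red) and of 7 further gene lists (grey), with the median of each list as a bar, solid line at equal signal and dotted lines at 2-fold. The member median is 0.38 at this floor, with Mgp and Tnfrsf11b far to the right, and the osteoclast marker median is −2.13, which is the bound of Itgb3.

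The dependence of the member ratios on the treatment of low signals was followed because 6 of the 11 measured probe sets had wild-type signal below the floor. Tnfrsf11b (both probe sets) and Mgp stayed past 2-fold, higher in null cells, in all 7 settings plotted here. Alpl and Comp passed 2-fold only where the floor was set at 50 or removed, and the 2 brightest Runx1 probe sets passed it in none. Acan, whose log2 ratio was 0.03, read −0.06 once the arrays were scaled to the same median.

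**Figure D4:**
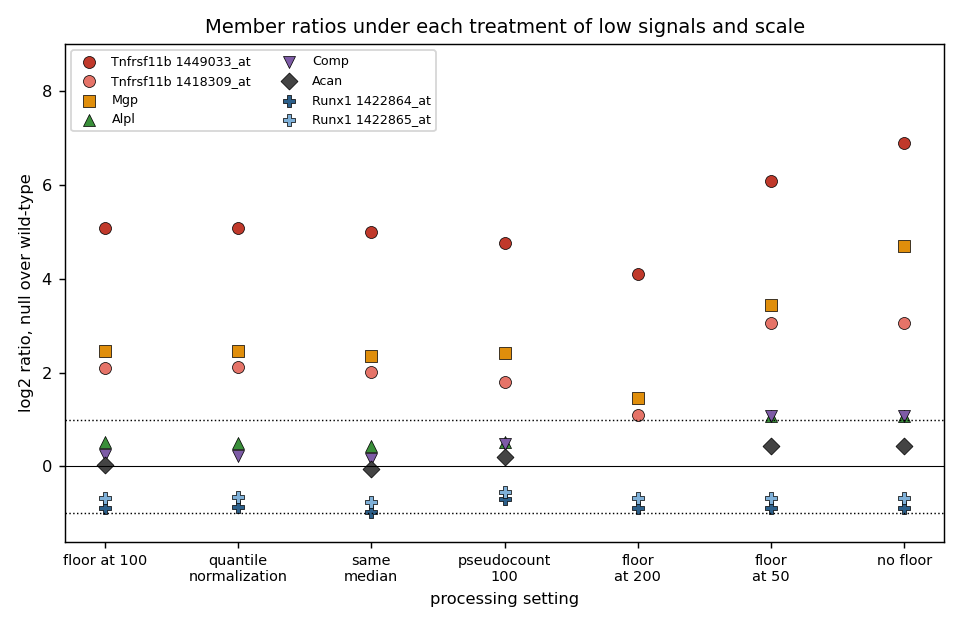
Log2 ratio, null over wild-type (y axis), of 8 member probe sets under 7 treatments of scale and low signals (x axis), with dotted lines at 2-fold, where a missing point means a probe set not measured in that setting. Tnfrsf11b at 1449033_at stays between 4.09 and 6.90 and Mgp between 1.45 and 4.70, whereas both Runx1 probe sets stay between −0.97 and −0.54.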

How the data were processed

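RNA of 1 Bmi1 null and 1 Bmi1 wild-type MEF line was hybridised to 1 array each. The deposited intensities are linear MAS5 signals, 1 per probe set, from the authors' MAS5 analysis. The trimmed mean of the values came out at 500 on both arrays, so each array appears to have been scaled as a whole. A difference common to most transcripts would therefore not be seen. The target of the scaling is not given in the sources used here, and detection calls were left out. Of 45101 probe sets, 34958 had 1 symbol, 932 several and 9211 none. The Entrez identifiers of all 17 member probe sets gave the same symbol in the RefSeq gene table (GRCm38.p6). No coordinates of probe sets are given, since no build is stated for them.

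Signals were floored at 0.2 times the trimmed mean and log2 ratios were taken as null over wild-type with Python 3.11.15, pandas 2.3.3 and SciPy 1.17.1, and the steps were tested on simulated data. There was no replicate and therefore no test. The number of arrays limits the precision. The members and all lists were chosen with earlier results of these data known. Besides members, up to 4 genes each way were named from each list if they differed at least 2-fold and reached the trimmed mean on 1 array or both, together with Bmi1 and defining markers. Other genes of the lists that are given by value, such as the partners of Tnfrsf11b, Mgp and Runx1, were chosen for their known role and not by that rule. The remaining measured osteoclast, macrophage, blood and endothelial markers are given so that these lists are complete. Alternatives were other floors, no floor, a pseudocount, quantile normalization, scaling to the median, leaving out probe sets that may cross-hybridise (suffixes _s_at, _x_at and _a_at), and averaging probe sets.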

Additional observations from a re-analysis of the deposited data

How the results depend on the processing

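No paired analysis was possible because each group is 1 array, and no replicate could be left out. With the floor lowered to 0.1 times the trimmed mean, 5 of 13 member probe sets had at least 2-fold higher signal in null cells. The same held for 4 of 7 member genes, beside 6.43% of all genes, while 5.27% of all genes were lower. Among the probe sets, 1 had at least 2-fold lower signal (Runx1 1452531_at, log2 ratio −1.02), and the gene median was 1.07. Shares of all probe sets were not computed at this floor or without a floor, so the probe set counts there are a description only. Without a floor, 7 of 17 probe sets and 4 of 8 genes lay past 2-fold on the higher side and 1 probe set on the lower side, the median was 0.75, and 2347 genes of the whole array were higher (12.9%) and 1580 lower (8.68%), against 674 and 607 with the floor. The genes added in both settings were Alpl and Comp, and without a floor 2 Hapln1 probe sets were added. Raising the floor to 0.4 times that mean gave a median of 1.45, over the 3 genes still measured. Under the pseudocount, quantile normalization, scaling to the median, leaving out probe sets that may cross-hybridise, and averaging, the gene counts were 2 higher and 0 lower (3.07% to 5.85% and 2.58% to 5.98% of all genes), with medians from 0.29 to 0.51. Of 59 single probe set values under alternatives, 41 moved by less than the SD between probe sets, 18 moved further and 0 of those past 2-fold changed sign. Values near or below 100 set a bound and no level.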

Other observations

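Bone regulators and a bone matrix gene that were too dim for the rule on named genes are given here, named after their values were seen. Omd, a leucine-rich proteoglycan of bone matrix, read 435 in null cells and 7.72 in wild-type cells, at least 4.35-fold higher. The homeobox gene Dlx5, which acts in osteoblast differentiation, read 234 in null cells and 9.92 in wild-type cells, at least 2.34-fold higher. Msx1, a homeobox gene of craniofacial and limb mesenchyme, read 232 in null cells and 32.4 in wild-type cells, at least 2.32-fold higher, while its second probe set exceeded the floor on neither array (67.0 and 16.2). All 3 genes had wild-type signal below the floor. Choosing dim genes at least 2-fold higher in null cells favours such a signal, so it is a description only. Of the other bone regulators on that list, Twist1, Atf4, Cbfb and Zfp521 were above the floor on both arrays. Their log2 ratios were 0.39, −0.13, 0.02 and −0.44 at their brightest probe sets. Dlx3, Dlx6, Msx2 and Runx3 were not measured.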
